A study of Rattus norvegicus with 196 samples.

Results

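The cingulate cortex (CGC) response to chronic fluoxetine was measured in 6 of the 196 bulk RNA-seq libraries of the series, 3 from fluoxetine-treated rats (FT) and 3 from control rats (Sham), all labelled CGC and carrying the replicate numbers 3, 4 and 5. The libraries of replicate 1 of both groups, also CGC, were left out of the tests as outliers and are described beside the results. The methods report 2 CGC outliers without giving their numbers. The animals were male Long-Evans rats, 2 months old at the start and not exposed to a stress model, so the comparison describes unstressed males. FT rats took 18 mg/kg of fluoxetine daily in their drinking water over 6 weeks, and Sham rats drank water without the drug. Each library pooled CGC punches of 10 of the 40 rats in its group, and the FT and Sham pools of one number were processed side by side, so the comparison was made within replicate numbers. The p-values measure the spread between 3 such pairs of pools, not between single animals.

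The cingulate cortex is a midline frontal area that receives serotonergic fibres from the raphe and is studied for its part in mood, pain and the control of attention. Fluoxetine blocks the serotonin transporter, which raises extracellular serotonin, and its clinical effect takes weeks to appear. Receptor signalling can reach the nucleus through cyclic AMP and calcium, where immediate early genes such as Fos are switched on, and synaptic activity is paid for largely by ATP from mitochondrial oxidative phosphorylation.

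The 6 libraries held 4499919 to 13874466 reads counted on 29188 rat transcripts. Replicate 3 stood apart in both groups. Its 50 most abundant transcripts took 52.7% of the reads in Sham and 69.4% in FT, against 30.6% to 37.0% in the 4 libraries of replicates 4 and 5. FT replicate 1, which was left out, was further away, with 83.3% of its reads on 50 transcripts and 24.5% of its reads ambiguous between transcripts. Sham replicate 1, left out with it, did not stand apart in this way, at 43.0% and 5.64%. The widest 95% Wilson interval of these shares spanned 0.0923 percentage points, which covers counting error only. By their expression profile all 8 CGC libraries were nearest to another cortical region (PLC, ILC or InsularCortex), with r of 0.78 for FT replicate 1 and 0.88 to 0.96 for the other 7 across 5837 transcripts, which are not independent. The second-nearest region was the ventral dentate gyrus for FT replicate 3 (r of 0.85, against 0.88 for ILC). It was the same for FT replicate 1 (0.76, against 0.78 for ILC), and a cortical region for the rest. The markers of hypothalamic neurons Hcrt, Avp, Npvf and Oxt had 0 to 8 reads in each of the 6 libraries. Other members of that list were detected, with 3 to 10 reads for Gal and 5 to 16 for Cartpt. All 11 thalamic and hypothalamic markers together summed to 30.2 to 35.9 CPM (counts scaled to a common library size) in Sham. In FT they summed to 34.3 to 40.0 CPM.

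**Figure D1:**
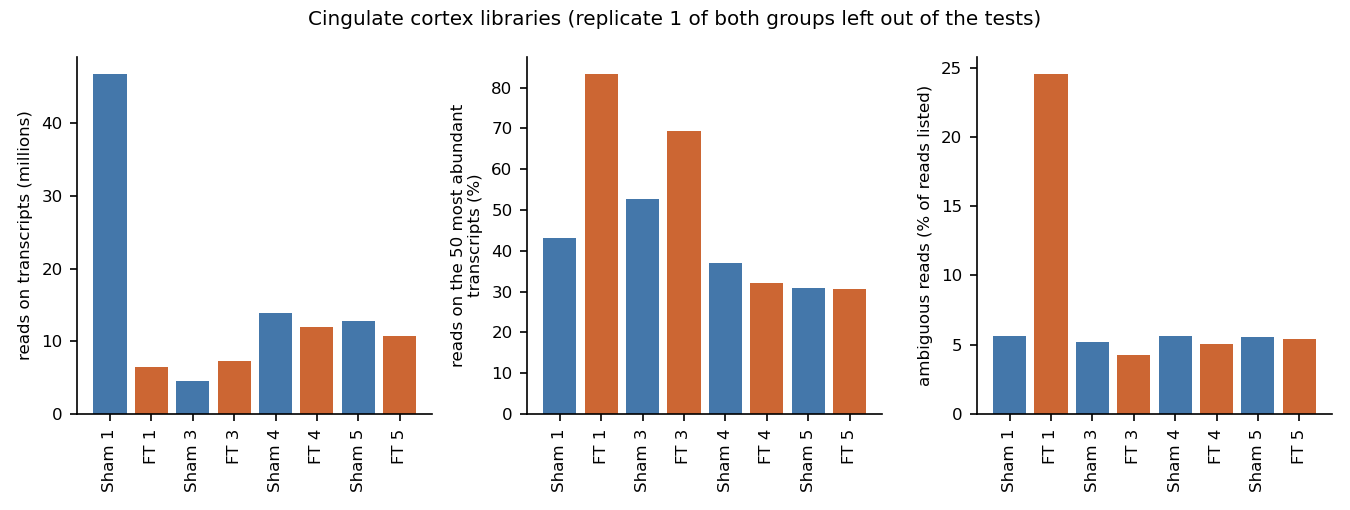
Reads on transcripts, percentage of those reads on the 50 most abundant transcripts, and ambiguous reads as a percentage of all reads listed, one bar for each of the 8 CGC libraries (blue Sham, orange FT). The bars of FT replicate 1 stand at 83.3% and 24.5% in the middle and right panel, and both libraries of replicate 3 lie above those of replicates 4 and 5 in the middle one.

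In CGC more of the called transcripts were higher than lower in FT. Of 13125 transcripts with enough reads to test, 61 were differentially expressed (DEGs), 0.465% of those tested, with 51 higher in FT (0.389%) and 10 lower (0.0762%). A transcript counted as a DEG when its log2 fold change (log2FC, FT over Sham) was 0.32 or more in size and its p, adjusted by Benjamini-Hochberg over all tested transcripts, was 0.1 or less in edgeR's quasi-likelihood test, with the replicate number as a block. The rises ran from 1.11 to 4.75 in log2FC with a median of 1.53, and the falls from -1.19 to -2.59 with a median of -1.98. All 61 changed in the same direction in all 3 pairs, as did 33.4% of all tested transcripts. All FT libraries lay above all Sham libraries for 12 of the 51 higher DEGs (3.7% of tested transcripts did so), and below them for 7 of the 10 lower DEGs (3.21% of tested transcripts).

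These calls rest on the tool, the pairing and single pairs. DESeq2 with the same block called 206 transcripts, 161 higher and 45 lower, which included 59 of the 61. With the same test and no block, 0 transcripts were DEGs in edgeR, with 171 at an unadjusted p under 0.05 against 1547 with the block, and DESeq2 without the block also gave 0. Without replicate 3 there were 732 DEGs, which included 56 of the 61. Without replicate 4 there were 170, which included 48 of the 61. Without replicate 5 there were 11, all among the 61.

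Names were known for 1807 of the tested transcripts, and 41 of these were DEGs, 36 higher and 5 lower, or 2.27% of named transcripts tested (1.99% higher and 0.277% lower). The groups did not overlap for 12 of the 36 and 3 of the 5, against 8.97% and 4.93% of named transcripts tested in the same direction. The study had listed named transcripts because it called them in several brain regions, so they are not independent evidence of a direction, and their median log2FC was 0.27 against 0.04 over all tested transcripts. The log2FC was positive for 63.4% of named and 54.0% of all tested transcripts, against which counts of positive list members are to be read. The list counts below carry the same limit. In pooled tissue, fewer cells of a type and less RNA per cell cannot be told apart.

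Genes of mitochondrial oxidative phosphorylation mostly had a positive log2FC. Of 33 tested transcripts of the respiratory chain and ATP synthase, 3 rose, 0 fell and 30 had a positive log2FC, with a median of 0.55. The 3 DEGs were Uqcrq, a subunit of complex III, and Ndufs8 and Ndufs7, core iron-sulphur subunits of complex I. In CPM, the counts scaled to a common library size, Uqcrq was 286, 25.6 and 133 in Sham and 595, 395 and 539.5 in FT, each in the order of replicates 3, 4 and 5. All FT libraries lay above all Sham libraries, and the Sham values were spread over a wide range. The log2FC was 2.31 ± 0.46 (standard error of the fit, n = 3 pairs; edgeR adjusted p = 0.0728).

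Ndufs8 stood at 109.8, 26.1 and 94.7 CPM in Sham and at 218, 84.2 and 248 CPM in FT, a log2FC of 1.36 ± 0.25 (edgeR adjusted p = 0.054). Its groups overlapped, because replicate 4 was low in both of them, and FT was higher in each pair. Ndufs7 stood at 154, 22.4 and 59.7 CPM in Sham and at 344, 73.5 and 124 CPM in FT, a log2FC of 1.31 ± 0.25 (edgeR adjusted p = 0.063). Without replicate 4 its log2FC was 1.05, and it was no longer a DEG (edgeR adjusted p = 0.105). The most abundant members of the list did not pass the test: the log2FC was 1.03 ± 0.34 for Atp5i, 0.74 ± 0.35 for Cox6a1, 0.50 ± 0.31 for Ndufb9 and -0.04 ± 0.36 for Uqcr11. Uqcrc2, a core subunit of complex III, had the lowest log2FC of the list, -0.67 ± 0.23, and its values were lower in FT in all 3 pairs; it was singled out after its values were seen.

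The list median within single pairs was 0.65 in replicate 3, 0.14 in replicate 4 and 1.04 in replicate 5, against 0.02, 0.00 and 0.06 over all tested transcripts. These 3 pairs had the same sign and differed in size, while the median in replicate 1, which was left out of the test, was -0.41. The list holds named transcripts only, whose median log2FC in the fit was 0.27. Their medians in single pairs are not given here, so the size of the list shift in a pair is uncertain.

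Genes for the mitochondrial ribosome and for protein import into mitochondria held 2 DEGs of 34 tested transcripts, both higher, with 31 positive and a median log2FC of 0.71. Both DEGs encode proteins of the small mitochondrial ribosomal subunit. Mrps34 was at 31.0, 15.2 and 19.2 CPM in Sham and at 92.1, 32.0 and 40.4 CPM in FT, without overlap, and rose by a log2FC of 1.23 ± 0.24 (edgeR adjusted p = 0.0728). Mrps7 was at 20.3, 19.1 and 41.1 CPM in Sham and at 32.6, 69.9 and 92.7 CPM in FT, where FT replicate 3 lay below Sham replicate 5. Its log2FC was 1.27 ± 0.27 (edgeR adjusted p = 0.096), and without replicate 4 it was 0.90 and no longer a DEG (edgeR adjusted p = 0.169). The list medians in the 3 pairs were 0.58, 0.51 and 0.82, and in replicate 1 the median was -0.27. Among abundant members, Mrpl51 had a log2FC of 0.61 ± 0.32, Mrps14 of 0.55 ± 0.26, Timm17a of 0.30 ± 0.28 and Tomm20 of 0.19 ± 0.27, none of which passed the test.

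Cytosolic ribosomal proteins held 5 DEGs of 26 tested transcripts, all higher, with 19 positive and a median log2FC of 0.48. The list did not move evenly over the pairs, with medians of 1.23, -0.40 and 0.37. The 5 DEGs were transcripts for small-subunit proteins (Rps10, Rps18), a large-subunit protein (Rpl36) and the stalk protein P1, which appears under the 2 identifiers Rplp1 and RPLP1. Rps10 was at 115, 7.20 and 8 CPM in Sham and at 306, 14.3 and 29.8 CPM in FT, so replicate 3 was more than 10 times higher than the others in both groups and the change lay within pairs. Its log2FC was 1.43 ± 0.25 (edgeR adjusted p = 0.0486). Rplp1 went from 498, 9.08 and 25.4 CPM in Sham to 1107, 48.3 and 91.5 CPM in FT, a log2FC of 1.79 ± 0.31 (edgeR adjusted p = 0.0463), and RPLP1 had a log2FC of 1.74 ± 0.30. Reads can be shared between such near-identical copies, so these 2 count as 1 uncertain result. Rps18 had a log2FC of 1.42 ± 0.29 and Rpl36 of 1.22 ± 0.25. The abundant Rps14 (1.19 ± 0.30), Rps15a (-0.02 ± 0.38), Rpl37 (-0.05 ± 0.45) and Rpl41 (-0.11 ± 0.42) did not pass. Without replicate 4 Rps18 was lost (log2FC 1.10, edgeR adjusted p = 0.122).

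**Figure D2:**
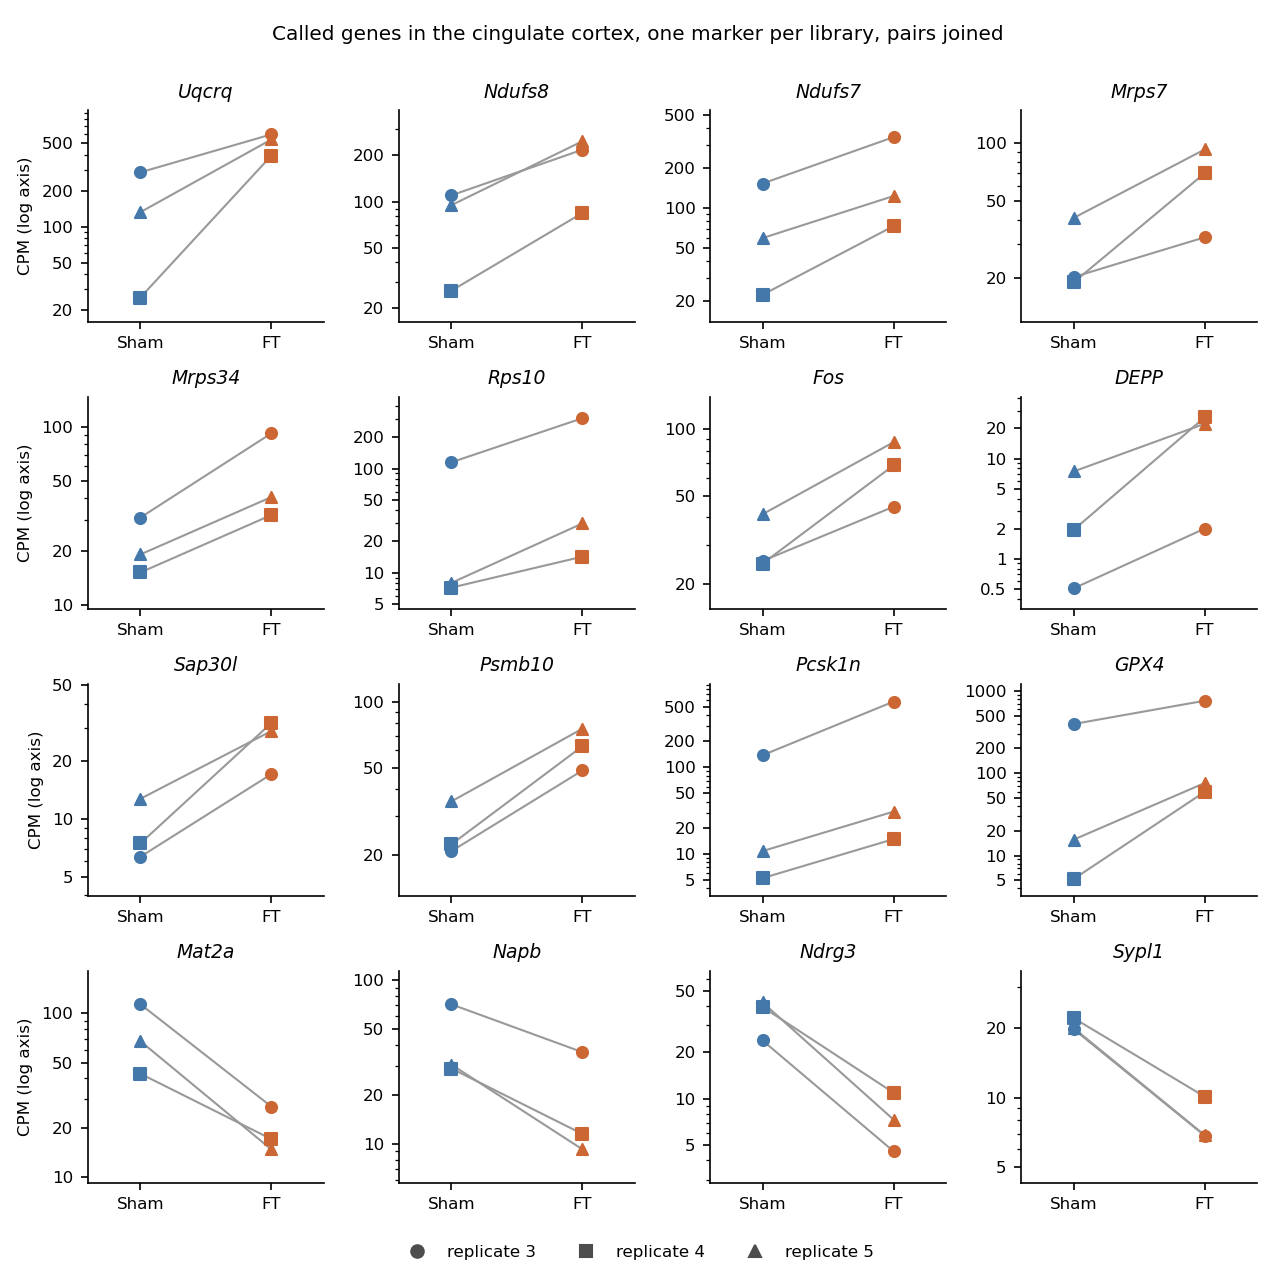
CPM on a log axis for 16 called genes, with Sham at the left and FT at the right of each panel, one marker per library (circle replicate 3, square replicate 4, triangle replicate 5) and a line joining the libraries of one number. Every line rises for the 12 genes of the upper 3 rows and falls for Mat2a, Napb, Ndrg3 and Sypl1.

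Among genes that respond to activity, Fos rose. Fos encodes a subunit of the transcription factor AP-1. It was at 25.4, 24.7 and 41.3 CPM in Sham and at 44.6, 68.6 and 87.3 CPM in FT, and no FT library overlapped the Sham range. The log2FC was 1.13 ± 0.24 (edgeR adjusted p = 0.096). Without replicate 4 it was 0.90 and missed the threshold (edgeR adjusted p = 0.157). Cyr61 was the other immediate early gene of the list with a name, and it was at 2.29, 26.3 and 11.1 CPM in Sham and 1.43, 59.4 and 41.4 CPM in FT. It was higher in FT in replicates 4 and 5 and lower in replicate 3. Its log2FC of 1.246 ± 0.36 did not pass (edgeR adjusted p = 0.21), and it was called without replicate 3 (log2FC 1.52, edgeR adjusted p = 7.95e-04).

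Genes of the stress response held 2 DEGs of 14 tested, both higher. DEPP, a FoxO target that responds to hormones and fasting, was at 0.508, 1.95 and 7.44 CPM in Sham and at 2.00, 25.7 and 22.2 CPM in FT. Replicate 3 was low in both groups, which made the ranges overlap. DEPP had the largest named rise, a log2FC of 2.52 ± 0.46 (edgeR adjusted p = 0.0503). It was called without replicate 3 and without replicate 5 and was lost without replicate 4 (log2FC 1.57, edgeR adjusted p = 0.132). Dnajb2, a neuronal co-chaperone, was the other DEG of the 14 tested stress genes, at 53.1, 16.2 and 30.2 CPM in Sham and 99.5, 39.2 and 86.2 CPM in FT (log2FC 1.24 ± 0.24, edgeR adjusted p = 0.063). In that list 12 of 14 were positive, with a median of 0.62. Fkbp4, a co-chaperone of steroid receptors, had a log2FC of 0.45 ± 0.24, and the metallothionein Mt3 of 0.23 ± 0.45.

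Of 40 tested chromatin regulators, 1 rose and 0 fell, near the shares of named transcripts tested (1.99% higher and 0.277% lower). Their median log2FC of 0.28 was close to the median of named transcripts. The DEG was Sap30l, a component of the Sin3A histone deacetylase complex, which was at 6.35, 7.46 and 12.8 CPM in Sham and at 17.2, 31.8 and 28.8 CPM in FT. The groups did not overlap, and the log2FC was 1.57 ± 0.29 (edgeR adjusted p = 0.053). Without replicate 4 it was lost (log2FC 1.22, edgeR adjusted p = 0.113). Trim28, a corepressor that recruits histone methyltransferase activity, had a log2FC of 0.75 ± 0.27 and was not called (edgeR adjusted p = 0.29).

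Protein turnover genes held 1 DEG among 41 tested, near the share of 2.27% among named transcripts tested. Psmb10, a catalytic subunit of the immunoproteasome, was at 20.8, 22.4 and 35.1 CPM in Sham and at 48.6, 62.7 and 75.5 CPM in FT. All FT libraries exceeded all Sham libraries, and the 3 within-pair ratios were close to one another (SD 0.19 on the log2 scale). Its log2FC was 1.27 ± 0.24 (edgeR adjusted p = 0.054). The deubiquitinase Otub1 was at 300.1, 265 and 415 CPM in Sham and at 348, 1409 and 968 CPM in FT. It was higher in all 3 pairs, least so in replicate 3, and its log2FC of 1.28 ± 0.40 did not pass (edgeR adjusted p = 0.24). Without replicate 3 Otub1 was called (log2FC 1.80, edgeR adjusted p = 0.00114). The proteasome subunit Psma7 had a log2FC of 1.00 ± 0.30, polyubiquitin UBB of 1.22 ± 0.66 and Skp1, an adaptor of ubiquitin ligases, of -0.71 ± 0.32, all short of the threshold.

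The remaining large rises had no shared list. GPX4, which reduces lipid hydroperoxides, was at 396, 5.19 and 15.6 CPM in Sham and at 759.9, 59.4 and 76.0 CPM in FT (log2FC 2.21 ± 0.41, edgeR adjusted p = 0.054). Pcsk1n, which encodes the prohormone convertase inhibitor proSAAS, was at 138, 5.25 and 10.8 CPM in Sham and at 576, 14.8 and 30.8 CPM in FT (log2FC 1.70 ± 0.26, edgeR adjusted p = 0.021). The transcript under the identifier PCSK1N had a log2FC of 1.85 ± 0.33 and may share reads with it. In all 3 the libraries of replicate 3 were far above the others in both groups, and the difference between treatments was seen within each pair. PCSK1N alone of the 30 DEGs named here was lost without replicate 3 (log2FC 1.33, edgeR adjusted p = 0.110). Vbp1, a prefoldin subunit, had a log2FC of 2.27 ± 0.47, and Dpm3, a subunit of dolichol-phosphate mannose synthase, of 1.98 ± 0.33. RGD1560394 (1.74 ± 0.31), Ttc9b (1.59 ± 0.29), NOSIP (1.59 ± 0.33), Comtd1 (1.53 ± 0.32) and Pdrg1 (1.48 ± 0.29) complete the largest named rises in log2FC, and of these 5 Ttc9b and Pdrg1 had no overlap between groups.

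**Figure D3:**
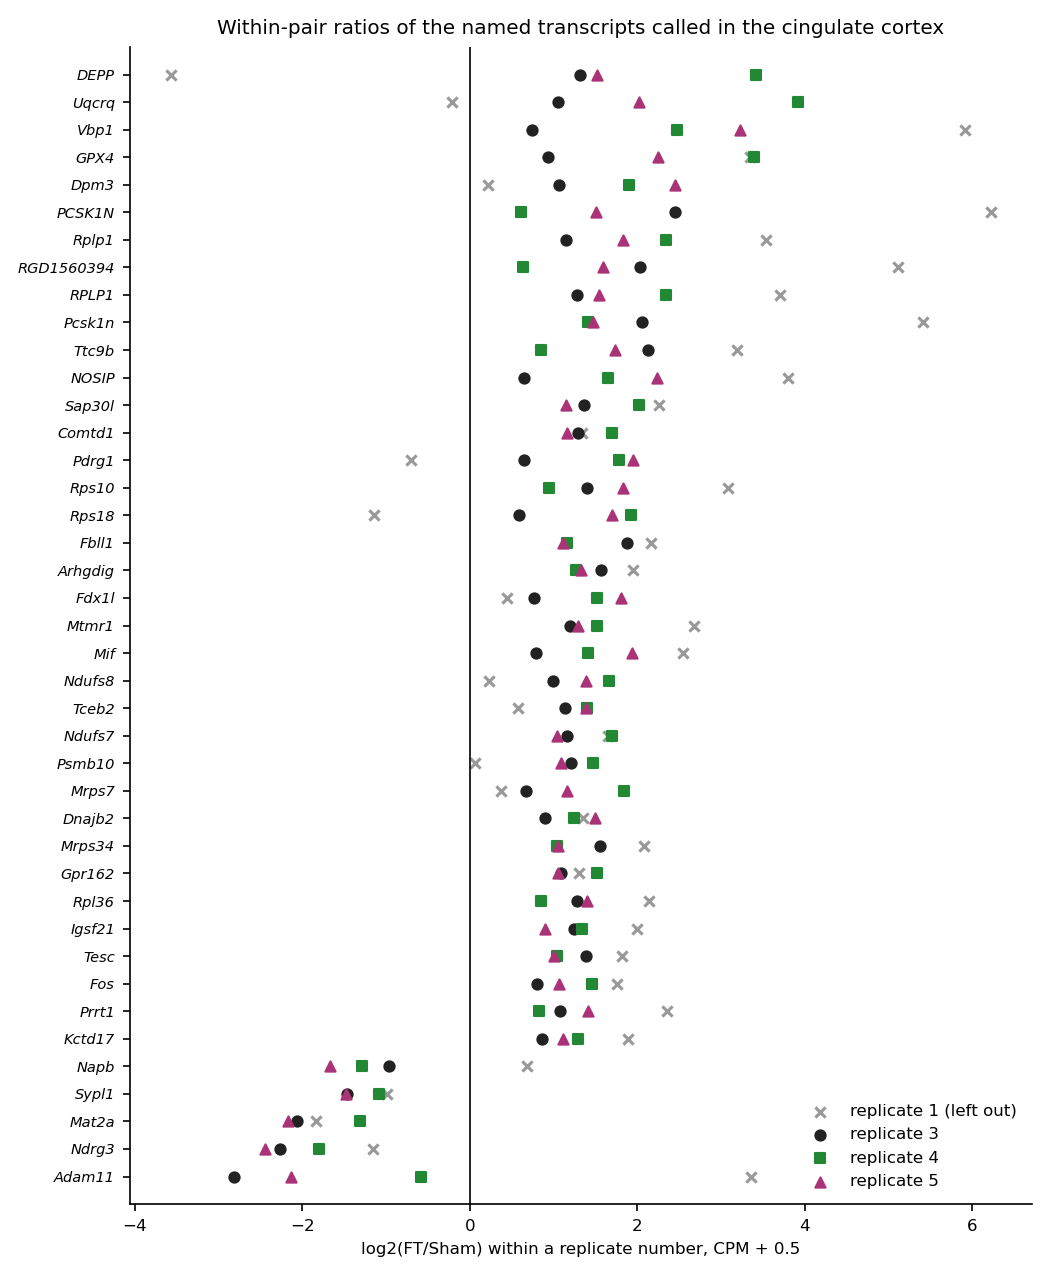
The log2 ratio of FT to Sham within each replicate number for the 41 named DEGs, ordered by log2FC, with replicates 3 (circle), 4 (square) and 5 (triangle) used for the test and replicate 1 (grey cross) left out. All circles, squares and triangles lie above 0 for 36 DEGs and below 0 for 5, while the grey crosses range from -3.57 for DEPP to 6.22 for PCSK1N.

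The named transcripts that fell were Mat2a, Napb, Sypl1, Ndrg3 and Adam11. Mat2a encodes the enzyme that makes S-adenosylmethionine, the methyl donor of the cell. It was at 114, 42.7 and 67.6 CPM in Sham and at 26.9, 17.0 and 14.7 CPM in FT, and every FT library lay below every Sham library. The log2FC was -1.87 ± 0.26 (edgeR adjusted p = 0.0133). It was the only DEG among 29 tested genes of phospholipid and methyl-group metabolism, whose median log2FC was 0.16. In that list the diacylglycerol kinase Dgkz had a log2FC of 1.12 ± 0.25 (edgeR adjusted p = 0.11) and the lipid phosphatase Lpin2 of 1.27 ± 0.37 (edgeR adjusted p = 0.21), and both were called only without replicate 3 among the 3 fits that left out a pair. Cds2, which makes CDP-diacylglycerol, was at 46.8, 3.31 and 3.41 CPM in Sham and at 76.1, 0.763 and 0.667 CPM in FT. It was higher in FT in replicate 3 and lower in replicates 4 and 5, and without replicate 3 it fell (log2FC -2.24, edgeR adjusted p = 0.00381).

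Napb and Sypl1 were the DEGs among 16 tested genes of synaptic vesicle release. Napb encodes beta-SNAP, which helps to take apart SNARE complexes after fusion, and was at 71.1, 28.9 and 30.5 CPM in Sham and at 36.3, 11.5 and 9.27 CPM in FT. It fell in each pair, with overlap between groups because both libraries of replicate 3 were high. The log2FC was -1.34 ± 0.26 (edgeR adjusted p = 0.063). Sypl1, a relative of synaptophysin, was at 19.8, 22.1 and 20.0 CPM in Sham and at 6.86, 10.1 and 6.89 CPM in FT, with no overlap and little spread within groups (log2FC -1.38 ± 0.28, edgeR adjusted p = 0.074). The list as a whole had 4 positive and 12 negative values and a median of -0.25. Among its abundant members that were not DEGs, Syp had a log2FC of 0.11 ± 0.35, Syt4 of -0.11 ± 0.27 and Rab3a of 0.42 ± 0.39.

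Ndrg3, a member of the NDRG family that binds lactate, was at 23.9, 39.4 and 42.1 CPM in Sham and at 4.58, 10.95 and 7.34 CPM in FT. The groups were well apart, and the log2FC was -2.23 ± 0.28 (edgeR adjusted p = 0.0047). Among the DEGs named here, Ndrg3 and DEPP were the ones still called without replicate 5 (edgeR adjusted p = 0.074 and 0.081). Adam11, a neuronal surface protein of the ADAM family, was at 45.2, 0.973 and 2.35 CPM in Sham and at 6.01, 0.485 and 0.148 CPM in FT. Most of its reads lay in Sham replicate 3, and the log2FC was -2.59 ± 0.48 (edgeR adjusted p = 0.054).

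To place some of these DEGs in the genome, the 250 bases before the start site are shown for the rises of Uqcrq and DEPP and the falls of Mat2a and Napb, as RefSeq gives them on the rat assembly GRCr8, 5′ to 3′ on the strand of the gene. The build of the counted transcripts was rn5, so the sequences describe the genes and not the counted intervals. Capitals mark the GC box GGGCGG or its complement, the core of binding sites for SP1-like factors. Uqcrq lies at chr10:38089979-38090228 on the minus strand and DEPP, under its symbol Depp1, at chr4:151583121-151583370 on the plus strand. The Mat2a sequence spans chr4:106053613-106053862 and the Napb sequence chr3:156632419-156632668, both on the minus strand.
Uqcrq: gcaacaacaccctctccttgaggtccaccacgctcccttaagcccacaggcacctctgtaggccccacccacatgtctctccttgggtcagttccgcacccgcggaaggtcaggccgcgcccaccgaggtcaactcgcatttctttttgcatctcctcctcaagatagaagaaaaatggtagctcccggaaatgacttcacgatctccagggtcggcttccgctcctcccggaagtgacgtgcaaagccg
DEPP: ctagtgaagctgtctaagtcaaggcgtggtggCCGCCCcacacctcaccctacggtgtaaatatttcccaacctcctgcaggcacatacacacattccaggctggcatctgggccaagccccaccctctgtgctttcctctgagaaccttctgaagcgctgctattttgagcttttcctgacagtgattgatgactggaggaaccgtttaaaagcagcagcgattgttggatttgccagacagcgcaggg
Mat2a: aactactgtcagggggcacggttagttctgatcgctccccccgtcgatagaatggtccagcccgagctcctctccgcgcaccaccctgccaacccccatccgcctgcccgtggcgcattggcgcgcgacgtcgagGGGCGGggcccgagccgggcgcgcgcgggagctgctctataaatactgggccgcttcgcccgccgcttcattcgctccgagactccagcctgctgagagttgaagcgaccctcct
Napb: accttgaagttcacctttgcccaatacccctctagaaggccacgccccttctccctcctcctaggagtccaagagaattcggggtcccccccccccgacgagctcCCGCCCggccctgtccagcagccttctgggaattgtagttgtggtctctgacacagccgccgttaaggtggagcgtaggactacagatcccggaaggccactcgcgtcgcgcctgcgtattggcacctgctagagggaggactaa
Of the 41 named DEGs, 32 matched a RefSeq promoter by symbol or synonym, which gave 30 distinct genes. The GC box was found in 15 of 27 promoters of higher DEGs (55.6%) and in 2 of 3 of lower DEGs (66.7%), against 62.3% of 1440 promoters of named genes tested and 30.5% of all 33469 promoters. The cyclic AMP response element TGACGTCA was found in 1 of the 27, 0 of the 3, 3.4% and 1.59% of these sets, and the palindromic NRF1 site in 1 of the 27, 0 of the 3, 2.43% and 0.762%. Both strands were searched, and the motifs do not overlap one another by their letters. A match of letters is a description only.

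Neurotransmitter receptors and ion channels held 0 DEGs in edgeR. Of all tested transcripts, 11.8% had an unadjusted p under 0.05, and DESeq2 called 206 in all. The same shares among named transcripts are not given here. Counts by these measures in lists of named transcripts therefore cannot be read as particular to a list. Of the serotonin list, 1 of 20 genes had an identifier, the receptor Htr1a, which had 19, 2 and 4 reads in Sham and 6, 0 and 0 reads in FT and was too low to test. Htr2a, Slc6a4 and Bdnf were not analysed here. GABA synapse genes gave 0 DEGs of 7 tested (4 at an unadjusted p under 0.05, 1 DEG in DESeq2) and the lowest list median, -0.64, with 6 of 7 negative in all 3 pairs. Gabrb2, a GABA-A receptor subunit, was at 16.5, 11.5 and 16.2 CPM in Sham and at 9.15, 4.78 and 5.12 CPM in FT. These groups did not overlap, and its log2FC of -1.28 ± 0.30 missed the threshold (edgeR adjusted p = 0.12) and passed it without replicate 3 (log2FC -1.49, edgeR adjusted p = 0.00614). Gad2, which makes GABA, had a log2FC of -0.64 ± 0.25, Gabrg1 of -0.70 ± 0.29, Gabrb1 of -0.37 ± 0.25 and Gabrd of 0.19 ± 0.28. Glutamate receptors had 3 of 7 at an unadjusted p under 0.05, 0 DEGs in DESeq2 and a median log2FC of -0.09, between -0.66 ± 0.26 for Grm7 and 0.78 ± 0.29 for Grin2c. Of 19 tested potassium, sodium and calcium channel genes, 12 were negative, 7 had an unadjusted p under 0.05 and 2 were DEGs in DESeq2, with a median of -0.41. The 4 other neurotransmitter receptors tested had 0 at an unadjusted p under 0.05, 0 DEGs in DESeq2 and a median of -0.50. Among them Chrm1, a muscarinic receptor, had a log2FC of -0.80 ± 0.47. It was at 48.3, 1.17 and 1.62 CPM in Sham and at 60.1, 0.277 and 0.297 CPM in FT. Chrm1 was thus higher in FT in replicate 3, which held most of its reads. Without replicate 3 it was called lower on the few reads left (log2FC -2.26, edgeR adjusted p = 0.047).

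Plasticity genes gave 0 DEGs of 17 tested in edgeR (9 at an unadjusted p under 0.05, 5 DEGs in DESeq2), with 7 positive, 10 negative and a median of -0.30, which was 0.20 without the block and 0.41 with all 8 CGC libraries. An unadjusted p under 0.05 was found for 11.8% of all tested transcripts, and the share of named ones is not given here. Nrgn, a calmodulin-binding protein of dendritic spines, was at 1486, 100.5 and 189 CPM in Sham and at 3389.8, 357 and 509 CPM in FT. It was higher in FT in each pair, and its log2FC of 1.48 ± 0.34 just missed the threshold (edgeR adjusted p = 0.11). Circadian output genes gave 0 DEGs of 4 tested (2 at an unadjusted p under 0.05, 2 DEGs in DESeq2) and a median of 0.85. Dbp, a transcription factor driven by the clock, was at 40.7, 71.0 and 54.1 CPM in Sham and at 61.2, 162 and 166 CPM in FT (log2FC 1.15 ± 0.26, edgeR adjusted p = 0.11). The cold-inducible RNA-binding protein gene Cirbp had a log2FC of 1.33 ± 0.37 (edgeR adjusted p = 0.18), Tef of 0.55 ± 0.27 and Rora of -0.33 ± 0.29. Without replicate 3, Nrgn (log2FC 1.61), Dbp (1.38) and Cirbp (1.87) were each called, the highest edgeR adjusted p of these being 0.00209 for Dbp.

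Without replicate 3, more members of most lists were called. The count was 11 of 33 for the respiratory chain and ATP synthase, 13 of 34 for the mitochondrial ribosome and import, 14 of 41 for ubiquitin and proteasome, 12 of 40 for chromatin regulators and 9 of 17 for plasticity genes. In that fit 5.46% of all tested and 24.2% of named tested transcripts were called.

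**Figure D4:**
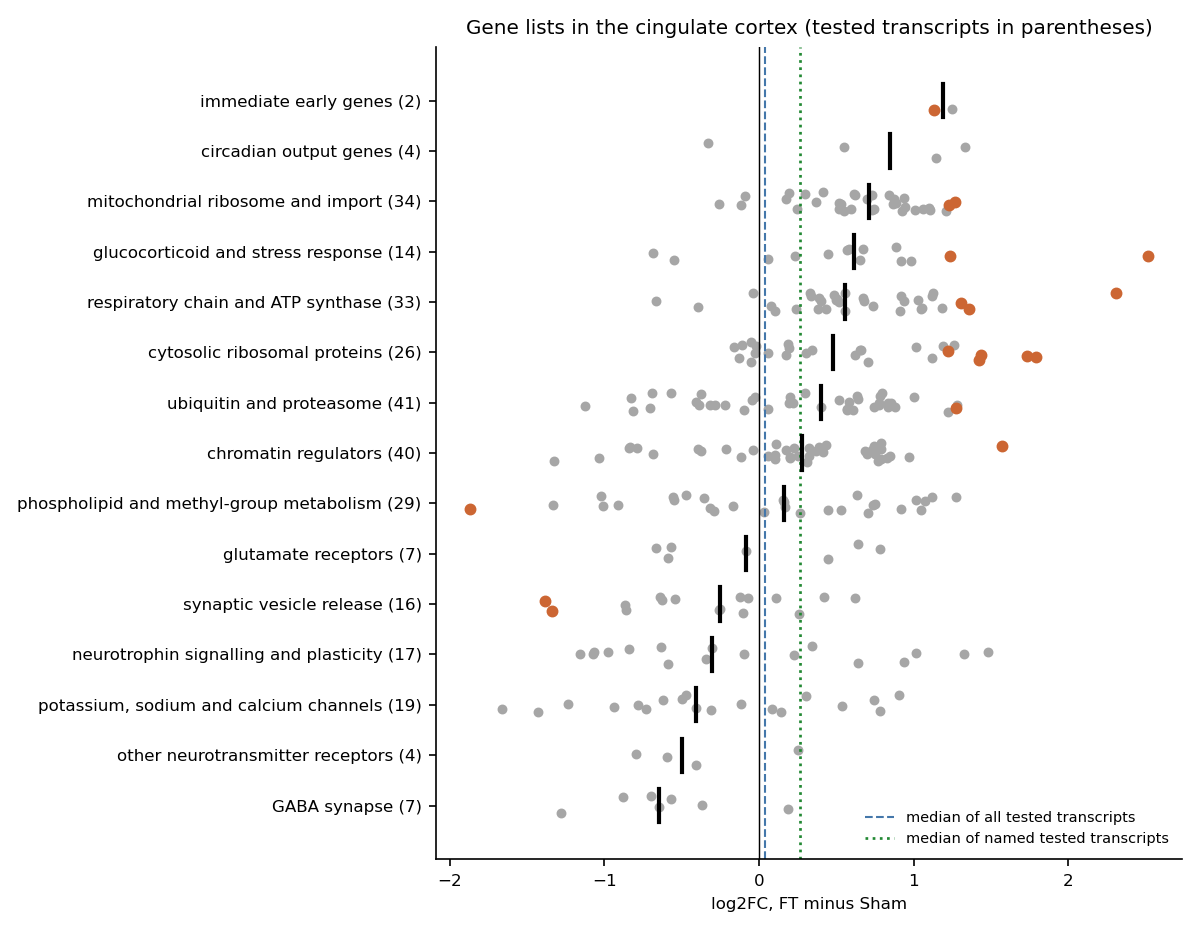
The log2FC of every tested member of 15 gene lists (points, orange for DEGs), with the list median as a black bar and the medians of all tested (dashed) and of named tested (dotted) transcripts as vertical lines. The medians run from -0.64 for GABA synapse genes to 1.19 for the 2 immediate early genes, and orange points to the right of 0 lie in 7 lists and to the left in 2.

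Cell type markers gave 0 DEGs among 56 tested transcripts of 11 marker lists in edgeR, with 21 at an unadjusted p under 0.05 and 3 DEGs in DESeq2. That p was reached by 11.8% of all tested transcripts, and the share of named ones is not given here. The summed level of 6 excitatory neuron markers was 2067, 697 and 777 CPM in Sham and 3953, 769 and 988 CPM in FT. The 5 interneuron markers summed to 2042, 473 and 309 CPM in Sham and to 3082, 475 and 609.6 CPM in FT. Both neuronal sums were highest in replicate 3, and Nrgn and Cck were their most abundant members by the mean of the 6 libraries. In Sham replicates 4 and 5 Lamp5 (521 and 391 CPM) was above Nrgn (100.5 and 189 CPM). There Pvalb (230 and 126 CPM) was also above Cck (131 and 83.5 CPM), and in FT neither order held. Lamp5 was lower in FT in all 3 pairs, with a log2FC of -0.38 ± 0.27 that did not pass the test. Sst, the somatostatin gene, had a log2FC of 1.12 ± 0.28 (edgeR adjusted p = 0.15) and was called without replicate 3 and without replicate 4. The other interneuron markers differed in direction. The log2FC was 0.95 ± 0.34 for Cck, 0.26 ± 0.28 for Pvalb, -0.02 ± 0.24 for Vip and -0.64 ± 0.25 for Gad2, none of which passed the test. Oligodendrocyte markers summed to 319 to 419 CPM in Sham and 326 to 446 CPM in FT, microglial markers to 42.1 to 64.5 and 44.7 to 75.8, and endothelial and mural markers to 38.3 to 84.1 and 39.3 to 89.8, all with overlap. Astrocyte markers ranged over 351 to 458 CPM in Sham and 344 to 503 CPM in FT. Blood markers, mainly Hbb, reached 475 and 844 CPM in Sham and FT replicate 3 against 88.2 to 173 CPM in the other 4 libraries. Striatal and septal markers spanned 129 to 209 CPM in Sham and 189 to 276 CPM in FT. In each pair the sum was higher in FT for 8 of the 11 lists, neuronal and glial ones among them. The astrocyte, blood and choroid plexus sums were not higher in each pair. Such sums weigh abundant members most. The 6 excitatory markers had 3 positive and 3 negative log2FC values (median -0.10), and so had the 6 microglial markers (median -0.30). The median was 0.26 for interneuron and 0.28 for oligodendrocyte markers. The part of these sums in the DEGs was not tested.

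Replicate 1 did not enter the test and gives a look at the same DEGs in a pair of libraries that the calls did not use. The ratio of FT to Sham had the sign of the call for 46 of 51 higher and 6 of 10 lower DEGs, 85.2% in all, against 60.4% of all tested transcripts. In that pair 46.0% of all tested transcripts were higher in FT. Named higher DEGs had a median log2 ratio of 1.98 there, with 3.34 for GPX4, 1.76 for Fos, 2.26 for Sap30l and 1.65 for Ndufs7. DEPP (-3.57), Uqcrq (-0.22), Pdrg1 (-0.70) and Rps18 (-1.15) went the other way. Of the named lower DEGs, Mat2a (-1.84), Ndrg3 (-1.16) and Sypl1 (-0.98) were lower in FT of replicate 1, while Napb (0.68) and Adam11 (3.36) were higher. These ratios have no replicate, and FT replicate 1 is the library with 83.3% of reads on 50 transcripts. With replicate 1 added as a further pair, 0 transcripts were DEGs, with 1207 at an unadjusted p under 0.05.

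The prelimbic (PLC) and insular cortex (InsularCortex) libraries of the same replicate numbers showed how far the CGC values were shared. FT against Sham gave 1 DEG of 12984 in PLC (0.0077%) and 8 of 13582 in InsularCortex (0.0589%). The 36 named higher CGC DEGs had a median log2FC of 0.54 in PLC and 1.02 in InsularCortex, against medians of 0.02 and 0.03 over all transcripts tested there. The pools of one number come from the same animals, so the regions are not independent. Ndrg3 was lower by -2.42 ± 0.48 in PLC and by -2.31 ± 0.28 in InsularCortex (edgeR adjusted p = 0.16 and 0.0048), and it was the only named CGC DEG called in either. Mat2a had a log2FC of -1.86 ± 0.47 in PLC and -1.47 ± 0.30 in InsularCortex, and Napb of -2.03 ± 0.45 and -1.36 ± 0.32, none of which passed there. Uqcrq had 1.66 ± 0.63 and 1.92 ± 0.47. Psmb10 had a log2FC of -0.0045 ± 0.33 in PLC and 0.75 ± 0.27 in InsularCortex, Rps10 had 0.06 ± 0.37 and 0.59 ± 0.28, and Rpl36 had -0.21 ± 0.38 and 0.60 ± 0.30.

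**Figure D5:**
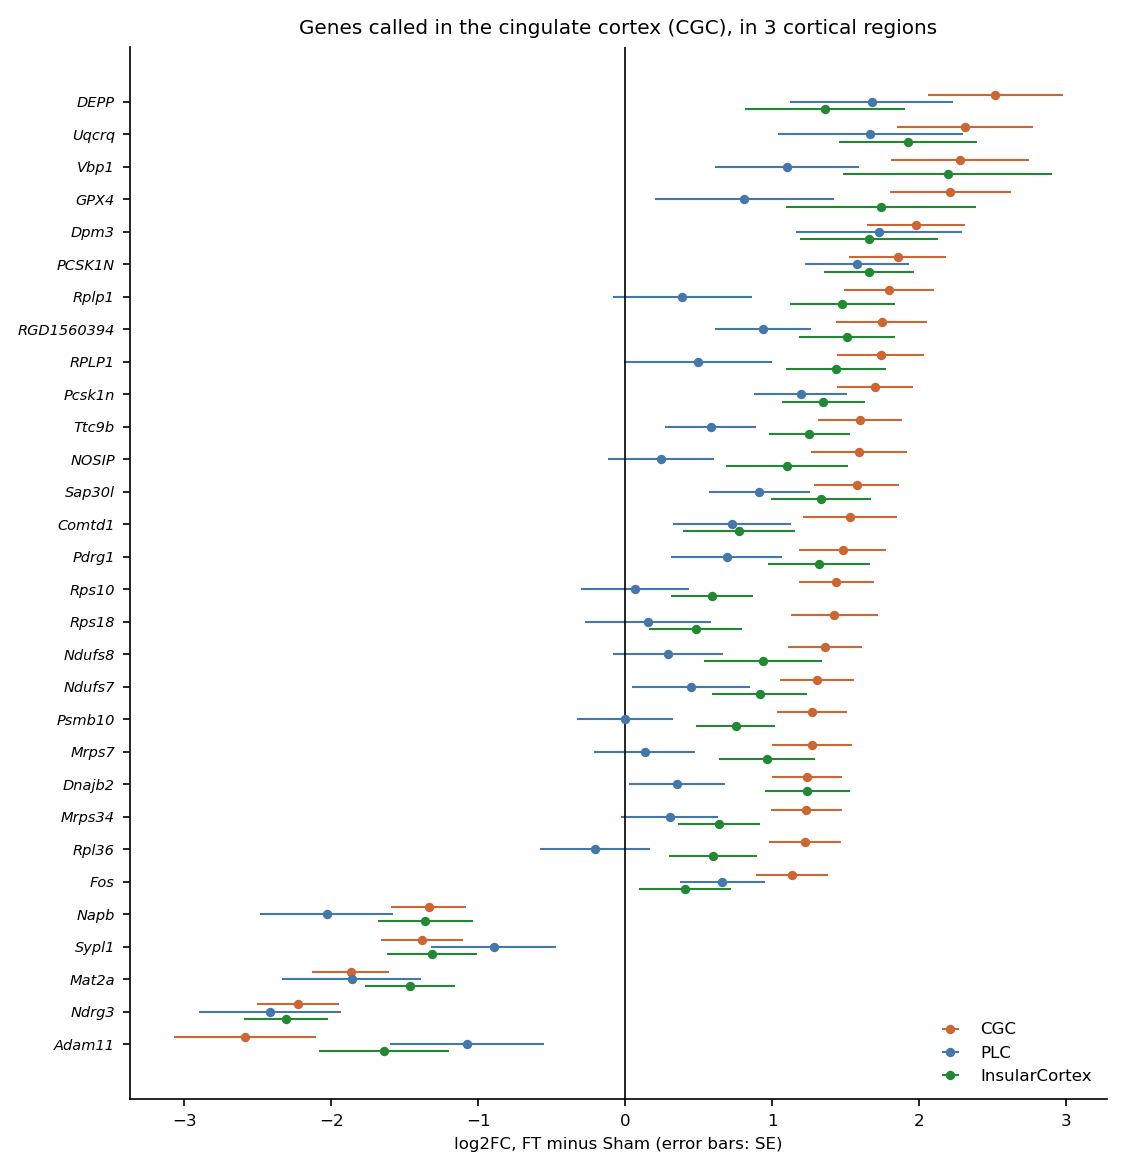
The log2FC with its standard error in CGC (orange), PLC (blue) and InsularCortex (green) for the 30 DEGs named here, ordered by the CGC value, each from its own fit of 3 pairs. Mat2a, Napb, Ndrg3, Sypl1 and Adam11 lie left of 0 in all 3 regions. The PLC points of Rps10, Psmb10, Mrps7, Rps18 and Rpl36 lie nearest to 0.

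The difference itself was tested in a joint edgeR fit of the 18 libraries, as the CGC log2FC less the mean of the other 2 regions. It was past the same thresholds for 14 of 14465 transcripts (0.0968%), 12 more positive in CGC and 2 more negative, with 830 at an unadjusted p under 0.05. It was past them for 0 of the 41 named CGC DEGs, of which 26 had an unadjusted p under 0.05. The 41 were chosen by their CGC log2FC, which is part of the difference, so the choice itself favours small p-values. The count of 26 therefore does not show a response particular to CGC. The smallest edgeR adjusted p of the 41 was 0.21, for Rps10, whose difference was 1.12 ± 0.25. The differences were 0.84 ± 0.23 for Psmb10, 0.57 ± 0.19 for Fos, -0.21 ± 0.37 for Mat2a and 0.20 ± 0.39 for Ndrg3. St7l was the only named transcript that passed, with a difference of -1.22 ± 0.20 (edgeR adjusted p = 0.025). It had 183, 1160 and 820 reads in Sham and 68, 2178 and 989 in FT of CGC, where its log2FC was 0.23 ± 0.36, against 1.79 ± 0.41 in PLC and 1.07 ± 0.33 in InsularCortex. Of the 13 without a name, 8 were also CGC DEGs. Several of these had near-equal counts in every library, with 181 to 213 reads in Sham and 1241 to 1354 in FT of CGC replicate 3. Whether they are copies of 1 sequence was not tested, so they may not be separate changes. The joint fit called 0 transcripts without the shared treatment effect of the replicate number (119 at an unadjusted p under 0.05) and 7 with the infralimbic region (ILC) added. Without replicate 3 it called 2, without replicate 4 it called 63 and without replicate 5 it called 19.

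The 20 DEGs without a name included the largest rises. ENSRNOT00000075747 was at 37.3, 0 and 0.280 CPM in Sham and at 723, 1.32 and 14.7 CPM in FT (log2FC 4.75 ± 0.40, edgeR adjusted p = 1.17e-04). ENSRNOT00000074557 was at 35.8, 0 and 0.336 CPM in Sham and at 693, 0.763 and 6.08 CPM in FT (log2FC 4.28 ± 0.37). Nearly all reads of both came from replicate 3, where FT was the higher library. For 7 of the 20, both libraries of replicate 3 were at least 10 times above the highest of the other 4 libraries, as they were for 1 of the 41 named DEGs and for 1.04% of all tested transcripts. Several of the 20 had near-equal counts in every library, so the unnamed rises may hold fewer separate changes than their count. Among these 20, the largest falls were ENSRNOT00000013621, at 16.8, 1.49 and 2.01 CPM in Sham and 4.004, 0.208 and 0.297 CPM in FT (log2FC -2.42 ± 0.44), and ENSRNOT00000005690, at 1.78, 3.18 and 3.64 CPM in Sham and 0.572, 0.624 and 0.741 CPM in FT (log2FC -2.20 ± 0.47).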

How the data were processed

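RNA of CGC punches was sequenced as 76 bp paired-end reads. The authors deposited raw counts per Ensembl transcript, made per the labels by STAR alignment to rn5 and counting with HTSeq, with no normalization; versions and the strand setting are not given in the sources used here. Reads shared by transcripts of a gene are ambiguous in such counting and were not assigned, which lowers the counts of genes with several transcripts. The library label names polyA RNA and the methods a total RNA kit. The last 5 lines of each file, read totals outside transcripts, were removed.

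Counts of the 6 libraries were tested with edgeR 4.0.16 in R 4.3.3 (TMM factors, filterByExpr at its defaults, 10 reads per library and 15 in all, quasi-likelihood test, replicate number as block). Standard errors were derived from the log2FC and the F statistic, as the size of the first over the root of the second. CPM use TMM-scaled library sizes, and within-pair ratios are of CPM + 0.5. The methods state that pools of one number were processed in parallel and that numbers entered the test as batches. Deviations of FT and Sham libraries from their group means correlated across transcripts with r of 0.82, 0.70 and 0.57 for numbers 3, 4 and 5, and also with 0.64 and 0.49 between numbers 4 and 5. No 2 libraries of a group held the same counts within sampling noise. The joint fit of 3 regions blocked on region and replicate together and let the treatment effect vary with the number in the same way in all regions. The counts alone limit the precision of transcripts with few reads. The blocked CGC fit in edgeR and in DESeq2 and the joint fit were tested on simulated data. For changes of 1 in log2FC they called 32, 30 and 55 of 100 changed transcripts, and for changes of 2 they called 91, 85 and 84 of 100. Unchanged transcripts called numbered 24, 17 and 27, in each fit a larger share of its calls than the 0.1 at which the adjusted p was cut. Changes of 1 were thus often missed in the CGC fits. Alternatives were DESeq2 1.42.0, no block, median-ratio size factors, no filter, a mean of at least 1 CPM, an adjusted p of 0.05, each pair left out, all 8 CGC libraries and, chosen after seeing the data, DESeq2 without the block, DESeq2 without replicate 3 and removal of the 109 transcripts among the 50 most abundant of any CGC library.

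Gene names came from a supplementary table of the study, which lists 1989 transcripts it called in several regions and gives a name for 1844 of them. The members, the gene lists and the rule for named genes were chosen with earlier results of these data known. The genes named were, among DEGs changed the same way in all 3 pairs, up to 15 largest rises and 15 largest falls with a name, every list member called, up to 4 of the most abundant members of each list, 11 genes fixed by name (Otub1, Trim28, Mat2a, Napb, Cds2, Gabrb2, Htr1a, Htr2a, Slc6a4, Bdnf and Fos), up to 5 named calls of the joint fit in each direction, and at most 2 rises and 2 falls by identifier. Values of some single genes that the rule allows are not reported here. Promoters came from RefSeq (GRCr8). Tables and figures used Python 3.11.15, numpy 2.4.6, pandas 2.3.3 and matplotlib 3.10.9.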

Additional observations from a re-analysis of the deposited data

Results flagged for a closer look

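FT CGC replicate 1, which was left out of the tests, had 24.5% of its reads ambiguous between transcripts, against 4.28% to 5.38% in the other 3 FT libraries, and it lay outside Dixon's 95% limit for 4 samples. With 5 measures of each library checked in FT and in Sham, chance marks about 1 in 20 for each measure in each group. The chance of a mark over all these checks is larger.

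In the joint fit, which called 14 transcripts and 0 without the shared treatment effect of the replicate number, 4 are given here. St7l had a difference of -1.22 between its log2FC in CGC and the mean of PLC and InsularCortex (edgeR adjusted p = 0.025). ENSRNOT00000073424 had a difference of 2.39 (edgeR adjusted p = 0.019). Its reads lay in replicate 3, with 563 in Sham and 1189 in FT of CGC, 2213 and 1194 in PLC and 1487 and 1352 in InsularCortex, and at most 14 in any other of the 18 libraries. ENSRNOT00000074633 had a difference of 2.38 (edgeR adjusted p = 0.019), with 213, 4 and 9 reads in Sham and 1291, 19 and 38 in FT of CGC. ENSRNOT00000019033 had a difference of -7.27 (edgeR adjusted p = 0.036), with 5, 232 and 138 reads in Sham and 8, 6 and 10 in FT of CGC.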

How the results depend on the processing

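Against 61 DEGs in CGC, DESeq2 gave 206, testing without the filter on low counts 525, a threshold of 0.05 for the adjusted p 23, DESeq2 without replicate 3 275, and no replicate block, DESeq2 with no block and all 8 CGC samples 0 each (171, 209 and 1207 at an unadjusted p under 0.05). Leaving out 1 pair gave 11 to 732. Median-ratio size factors (45), a mean of at least 1 CPM (46) and removal of the most abundant transcripts (48) stayed within 1.5 times. The cause of these shifts was not tested. DESeq2 called 59 of the 61. Against 14 in the joint fit, no shared treatment effect gave 0 (119 at an unadjusted p under 0.05), ILC added 7, no filter 140, and leaving out a pair 2 to 63.

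The direction of each of the 30 named DEGs was kept under every alternative. All 30 stayed DEGs in DESeq2 and with no filter, 22 with median-ratio size factors, 24 at a mean of at least 1 CPM, 29, 23 and 2 without replicate 3, 4 or 5, and 0 without the block or with all 8 samples.

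Over 14 list medians and 168 alternative values, 158 kept their sign. Without the block the medians were 0.20 for plasticity genes, -0.15 for other neurotransmitter receptors and -0.0804 for vesicle release, and with DESeq2 without the block 0.16, -0.14 and -0.11. With all 8 samples they were -0.48 for GABA synapse genes, 0.63 for glutamate receptors, 0.49 for the mitochondrial ribosome and import, 0.41 for plasticity genes, 0.40 for other receptors, -0.0486 for channels and 0.11 for vesicle release. DESeq2 without replicate 3 gave -0.70 for glutamate receptors and -0.67 for channels. Leaving out 1 pair gave -0.70 to 0.20 for glutamate receptors, -0.67 to -0.25 for channels, 0.14 to 0.31 for chromatin regulators, 0.46 to 0.63 for stress genes and -0.0647 to 0.31 for phospholipid and methyl-group metabolism.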
